A study of Mus musculus with 16 samples.

Results

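The genes described here are 10 members of the liver X receptor (LXR) and cholesterol efflux pathway, chosen by name: Nr1h3, Nr1h2 and Rxra, Abca1, Abcg1 and Abca9, Apoe, Pltp, Lpcat3 and Mylip. Each symbol matched 1 row of the count table, so that they made up 10 of 47069 gene rows. RNA-seq was performed on bone marrow-derived macrophages (BMMs) grown for 7 days from C57BL/6 mice aged 8 to 10 weeks. All cells had been primed with IFNγ at 10 ng/mL and were then given LPS at 100 ng/mL together with immune complexes of ovalbumin and IgG (LPS/ICs) for 1 hr. A pair of libraries came from cells that received DAPT at 25 μM, a gamma-secretase inhibitor (GSI) that blocks the cleavage of Notch receptors, and a pair from cells that received the vehicle, DMSO at 0.01%. No unstimulated cells were analysed here, and DAPT acts on every substrate of gamma-secretase.

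LXRα and LXRβ are nuclear receptors that bind oxysterols, the oxidized derivatives of cholesterol, and act as heterodimers with RXR on a direct repeat in DNA known as the LXR element. When a macrophage takes up cholesterol, for example with dead cells or modified lipoproteins, these receptors turn on the transporters that load it onto apolipoproteins and HDL outside the cell, along with enzymes that remodel phospholipids and a ubiquitin ligase that limits cholesterol uptake. LXRs are also known to restrain inflammatory genes in macrophages, and signaling through TLR4 is known to lower part of the LXR program.

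Transcripts of the ABC transporters Abca1, Abcg1 and Abca9 were lower in GSI-treated than in DMSO-treated BMMs, whereas Nr1h3, the gene of LXRα, was higher. Abca1 was 79.5% lower (95% interval 76.7% to 81.9%), Abca9 76.8% lower and Abcg1 35.7% lower, and Nr1h3 was 1.77-fold higher (95% interval 1.59 to 1.98). The gene of LXRβ, Nr1h2, and the targets Lpcat3 and Mylip had no detectable difference. With an FDR under 0.05, 5 of the 10 genes were lower with GSI (Abca1, Abcg1, Abca9, Rxra and Pltp), 1 was higher (Nr1h3) and 4 did not pass (Nr1h2, Apoe, Lpcat3 and Mylip). Of all 13211 genes tested, 21.9% were lower and 19.0% higher by the same rule (edgeR quasi-likelihood test, Benjamini-Hochberg adjusted). Abca1 and Abca9 were also beyond 1.5 in absolute log2 fold change, a threshold that the study used as well and that 2.17% of all tested genes passed in the lower direction. The median log2 fold change was -0.19 over the 10 genes and 0.01 over all tested genes. Since the 10 genes were chosen with earlier results of these data known, these comparisons do not test the pathway as a set. In bulk RNA, fewer cells that express a gene and less of its RNA per cell cannot be told apart.

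The values are read counts per gene. Each replicate was deposited as 4 columns, which the labels do not explain. They differed by about the sampling noise and were summed, giving 4 libraries whose totals were 42694655 and 56932059 (DMSO) and 48483661 and 49511733 (GSI). Levels are given as CPM, counts per 1e6 counts of the library after TMM scaling. A count of 0 allows up to 3 counts, 0.0527 to 0.0703 CPM, and these limits cover counting error only. Nothing in the labels says that the replicates came from separate mice or cultures, so that the tests measure the spread between these samples, which may be technical. An exact permutation test of 2 against 2 libraries cannot give a p below 0.333, and fold changes were therefore tested in the fit across all genes.

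Markers fit the label of macrophages, since all 8 macrophage markers were measured, with a summed level of 6942 and 7186 CPM with DMSO and 5144 and 5695 CPM with GSI. Of these 8, 6 were lower with GSI, among them Csf1r (log2 fold change -0.56) and Cd14 (-0.64), and 1, Mertk, was higher. Over all tested genes, 21.9% were lower and 19.0% higher. Markers of other cells were low, and among them Lck was higher (log2 fold change 1.14) and Xcr1 lower (-0.42) with GSI. The part of these markers in the results on the 10 genes was not tested. The summed level of 9 neutrophil and granule markers was 0.720 to 1.43 CPM, that of 5 T cell markers 1.13 to 2.79 CPM, nearly all from Lck, that of 4 B cell markers 0.0232 to 0.124 CPM and that of 5 fibroblast markers 0.0621 to 0.162 CPM. The 5 dendritic cell markers summed to 3.69 to 5.25 CPM, mostly from Xcr1, and mast cell markers (4 of 4) and erythroid markers (4 of 5) were at 0 in every library. The Notch targets Hes1 and Hey1 had at most 5 counts in any library, so that their response to DAPT could not be measured at this depth. By other assays, the study reported loss of cleaved Notch1 on Western blots with GSI and lower Hes1 mRNA by qPCR.

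The promoters of the genes with the largest changes are shown because LXRs and RBPJ, the DNA-binding partner of cleaved Notch, act through short motifs in DNA. The 250 bases before the transcript start were taken from RefSeq (GRCm38.p6), which held 13 start sites for 9 of the 10 genes. No start site was available for Abcg1, which was therefore not searched. The search covered both strands for a loose LXR element, a direct repeat of GGTNA with 5 letters between the copies, and for TGGGAA, the core of the RBPJ site. Capitals mark the matches.
Abca1, chr4:53159896-53160145, minus strand: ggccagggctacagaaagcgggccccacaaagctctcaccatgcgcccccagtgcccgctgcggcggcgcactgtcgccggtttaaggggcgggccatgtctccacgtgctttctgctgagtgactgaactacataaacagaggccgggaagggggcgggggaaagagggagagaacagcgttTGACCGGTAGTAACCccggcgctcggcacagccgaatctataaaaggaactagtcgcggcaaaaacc
Abca9, chr11:110168154-110168403, minus strand: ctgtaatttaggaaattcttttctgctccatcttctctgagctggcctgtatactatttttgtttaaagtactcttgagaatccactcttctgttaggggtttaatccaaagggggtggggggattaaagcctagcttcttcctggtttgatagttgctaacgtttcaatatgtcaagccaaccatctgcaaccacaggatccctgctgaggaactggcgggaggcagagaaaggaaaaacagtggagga
Nr1h3, chr2:91195117-91195366, minus strand: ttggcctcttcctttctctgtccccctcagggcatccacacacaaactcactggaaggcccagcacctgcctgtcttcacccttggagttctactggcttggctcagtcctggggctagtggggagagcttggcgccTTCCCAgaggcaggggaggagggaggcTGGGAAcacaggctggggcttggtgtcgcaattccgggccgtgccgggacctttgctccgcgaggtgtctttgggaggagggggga
The Abca1 promoter held a match to the LXR element from 67 to 53 bases before the start, reading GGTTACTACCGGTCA on the opposite strand. It was found in 1 of the 9 genes, and 0.621% of the 32851 promoter windows of this length in RefSeq held such a match. The Nr1h3 window shown, before the more distal of its 2 listed starts, held TGGGAA at 113 to 108 bases (opposite strand) and at 86 to 81 bases before the start. That core was also found in Mylip, at 113 to 108 bases, and in Rxra, at 248 to 243 bases, and 21.6% of all windows held it. Abca9 held neither motif. Matches describe the letters and do not show that a factor was bound, and elements outside these windows were not searched.

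The receptors differed in direction. Nr1h3 encodes LXRα, the LXR that macrophages, liver and fat express most selectively, and lies on chromosome 2 (GRCm38, chr2:91184061-91202834, minus strand, ENSMUSG00000002108). It was counted 1367 and 1706 times with DMSO, against 2632 and 2725 times with GSI, which is 31.8 and 30.1 CPM against 54.4 and 55.2 CPM. Both GSI libraries lay well above both DMSO libraries. The log2 fold change was 0.83 (standard error 0.0745, FDR = 2.54e-08 edgeR quasi-likelihood test, Benjamini-Hochberg adjusted), and it ranged from 0.78 to 0.87 when each library was left out in turn. Only 34 of its exon bases are shared with another gene, Gm13783 on the same strand, which had 1 to 4 counts.

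Nr1h2 encodes LXRβ, which nearly all tissues express (chr7:44549616-44553951, minus strand, ENSMUSG00000060601). It had 102 and 114 CPM with DMSO and 108 and 110 CPM with GSI, and both GSI values lay between the DMSO values. The fold difference was 1.01, with a 95% interval from 0.907 to 1.12 (FDR = 0.921 edgeR quasi-likelihood test, Benjamini-Hochberg adjusted), so that a change as large as that of Nr1h3 was outside the interval. Within each library, the level of Nr1h3 per kilobase of exons relative to that of Nr1h2 was 0.414 and 0.353 with DMSO and 0.671 in each GSI library. LXRα transcripts were thus less abundant per length than LXRβ transcripts in all 4 libraries, and the ratio did not overlap between the groups.

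Rxra encodes RXRα, the partner that LXRs need for binding DNA and that they share with other nuclear receptors (chr2:27676440-27762957, plus strand, ENSMUSG00000015846). It was expressed at 9.02 and 9.01 CPM with DMSO (388 and 511 counts), and at 6.70 and 6.58 CPM with GSI (324 and 325 counts). The GSI libraries were lower without overlap, by 26.3% (log2 fold change -0.44, standard error 0.107, FDR = 0.00242 edgeR quasi-likelihood test, Benjamini-Hochberg adjusted). Rxrb, the gene of another RXR, was at 27.6 ± 0.215 CPM (SD, n = 2) with DMSO and 29.0 ± 2.73 CPM (SD, n = 2) with GSI and did not pass the test, and Rxrg had 0 counts in every library.

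**Figure D1:**
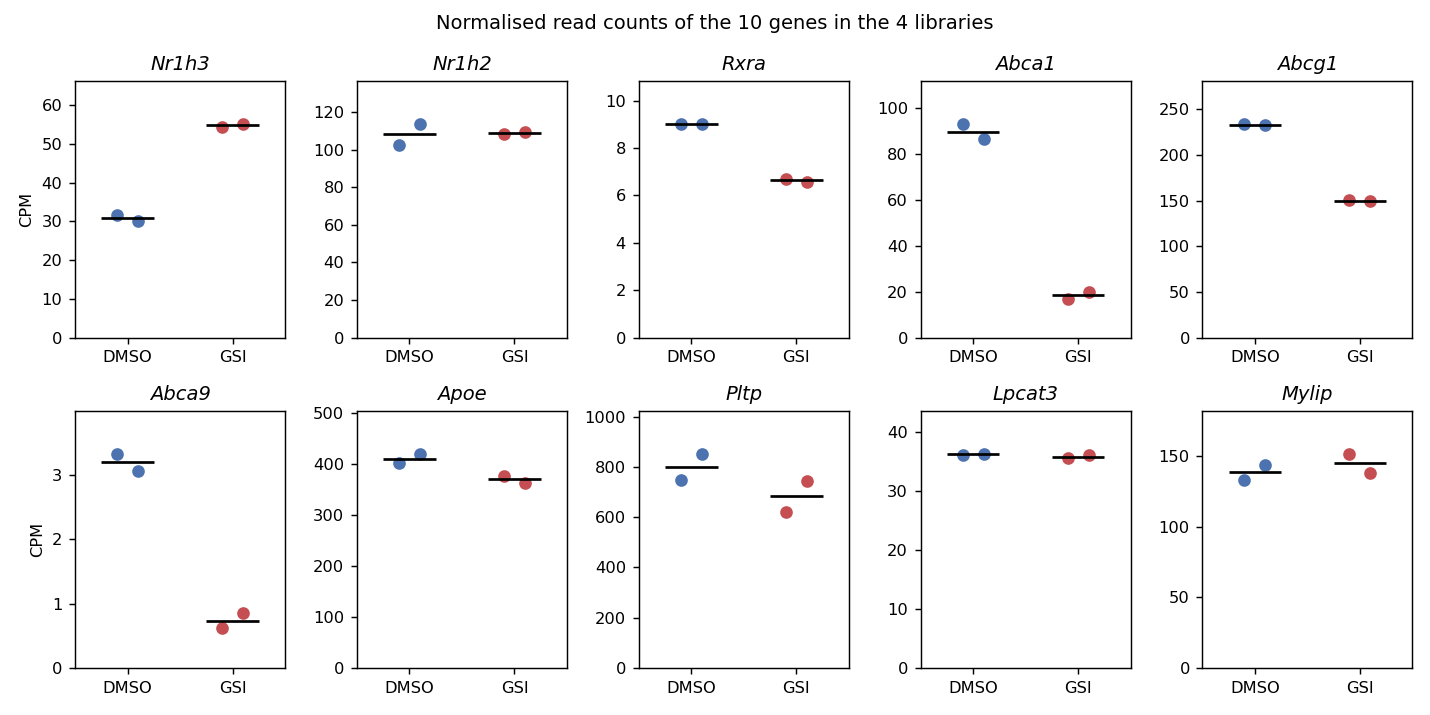
Levels in CPM (vertical axes, each from 0) of the 10 genes in the 2 DMSO libraries (blue) and the 2 GSI libraries (red), 1 point per library, with the group mean as a black line. Abca1 fell from 93.1 and 86.4 CPM to 16.8 and 20.0 CPM while Nr1h3 rose, and the groups overlap for Nr1h2 and Mylip.

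The transporters fell by unequal amounts. Abca1 encodes the transporter that moves cholesterol and phospholipid to lipid-poor apolipoprotein A-I, the first step of HDL formation, and its promoter was the one of the 9 searched genes with a match to the LXR element above (chr4:53030787-53159895, minus strand, ENSMUSG00000015243). It was counted 4005 and 4901 times with DMSO but 811 and 989 times with GSI, or 93.1 and 86.4 CPM against 16.8 and 20.0 CPM. The lowest DMSO library was thus more than 4 times the highest GSI library. The log2 fold change was -2.28 (95% interval -2.47 to -2.10, FDR = 1.53e-13 edgeR quasi-likelihood test, Benjamini-Hochberg adjusted) and stayed between -2.42 and -2.16 when each library was left out in turn. The decrease was the second largest of the 7581 genes with a mean of at least 10 CPM, and 143rd from the lowest of all 13211 tested genes, since most of the larger decreases were measured at low levels. Abca1 shares no exon bases with another annotated gene.

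Abcg1 encodes a transporter that moves cholesterol to mature HDL particles and acts together with Abca1 in macrophages (chr17:31057675-31117988, plus strand, ENSMUSG00000024030). Its values were tight, at 234 and 232 CPM with DMSO and 150.2 and 149.8 CPM with GSI. The groups were far apart relative to the spread within them. The log2 fold change was -0.64 (standard error 0.0683, FDR = 2.76e-07 edgeR quasi-likelihood test, Benjamini-Hochberg adjusted), and its 95% interval of -0.78 to -0.49 did not reach that of Abca1. The level of Abca1 per kilobase of exons relative to that of Abcg1 was 0.280 and 0.262 with DMSO but 0.0786 and 0.0942 with GSI. Abcg1 was the more abundant transcript per length in all 4 libraries, and by a wider margin with GSI.

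Abca9 encodes an ABCA transporter whose substrate is less well known and whose transcript is known to respond to cholesterol in macrophages (chr11:110100749-110168196, minus strand, ENSMUSG00000041797). Its reads were few: 143 and 174 with DMSO, 30 and 42 with GSI. These correspond to 3.32 and 3.07 CPM with DMSO, with exact 95% Poisson intervals of 2.80 to 3.92 and 2.63 to 3.56, and to 0.621 and 0.850 CPM with GSI, with intervals of 0.419 to 0.886 and 0.613 to 1.15. The intervals of the groups did not overlap, although they cover counting error only. The log2 fold change was -2.11 (standard error 0.206, FDR = 7.82e-08 edgeR quasi-likelihood test, Benjamini-Hochberg adjusted), with a range of -2.36 to -1.90 when each library was left out in turn.

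**Figure D2:**
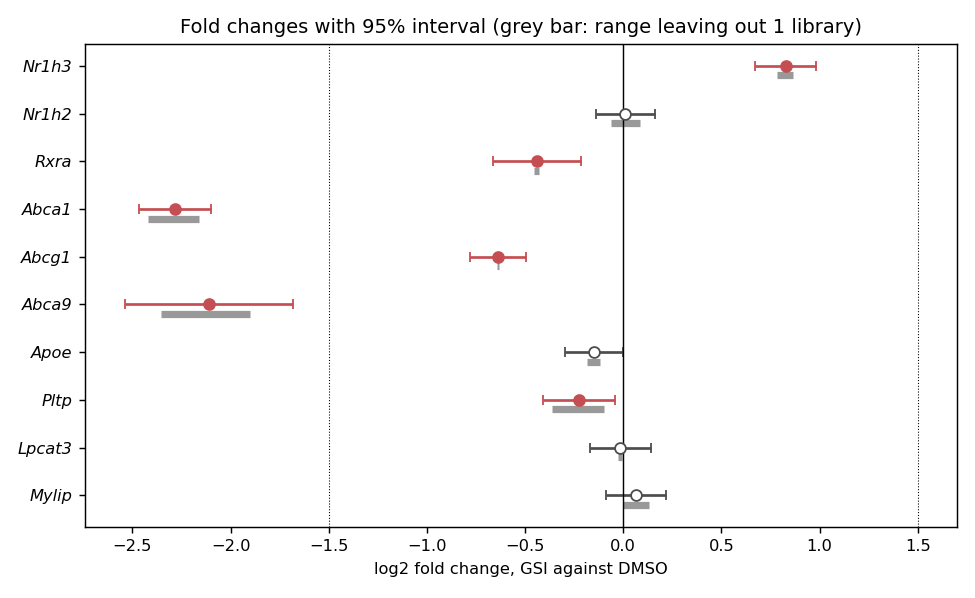
Log2 fold change of each gene, GSI against DMSO (horizontal axis), with the 95% interval as a line, filled red where the FDR was under 0.05 and open otherwise, the range over fits without 1 library as a grey bar, and dotted lines at an absolute value of 1.5. Abca1 (-2.28) and Abca9 (-2.11) lie beyond the dotted line, Nr1h3 (0.83) is the gene on the right that passed the test, and the grey bar of Pltp comes closest to 0 among the genes that passed.

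The lipid carriers changed little. Apoe encodes apolipoprotein E, which macrophages secrete and which accepts the exported cholesterol (chr7:19696109-19699188, minus strand, ENSMUSG00000002985). It had 401 and 419 CPM with DMSO and 377 and 362 CPM with GSI. The groups did not overlap, but the fold difference of 0.901, with a 95% interval of 0.813 to 0.997, had an unadjusted p of 0.0450 and did not pass after adjustment (FDR = 0.0938 edgeR quasi-likelihood test, Benjamini-Hochberg adjusted). Of the 10 genes, 8 had groups that did not overlap, all but Nr1h2 and Mylip, beside 70.6% of all tested genes.

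Pltp encodes phospholipid transfer protein, which moves phospholipids between lipoproteins and was the most abundant of the 10 transcripts (chr2:164839518-164857711, minus strand, ENSMUSG00000017754). It had 746.3 and 851.5 CPM with DMSO and 621.0 and 745.6 CPM with GSI. The higher GSI library nearly reached the lower DMSO library, and replicates of a group differed by about as much as the groups did. The difference, -0.23 on the log2 scale, only just passed the threshold (standard error 0.0881, FDR = 0.0467 edgeR quasi-likelihood test, Benjamini-Hochberg adjusted). It was lost without DMSO replicate 2 (log2 fold change -0.13, FDR = 0.368) and without GSI replicate 1 (log2 fold change -0.10, FDR = 0.401), both by the same edgeR test. Pltp shares 495 bases, 19.3% of its exons, with Ctsa on the other strand, which had 42069 to 56437 counts, and the strand setting of the counting is not given in the sources used here.

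Lpcat3 and Mylip, 2 targets of LXR with other tasks, were close to equal in both groups. Lpcat3 encodes the enzyme that puts polyunsaturated fatty acids into membrane phospholipids (chr6:124663027-124704418, plus strand, ENSMUSG00000004270). It had 36.0 and 36.2 CPM with DMSO and 35.5 and 36.0 CPM with GSI, and the 95% interval of the fold difference was 0.888 to 1.10 (FDR = 0.889 edgeR quasi-likelihood test, Benjamini-Hochberg adjusted). It shares 334 exon bases with Emg1 on the other strand, which had 1095 to 1406 counts. Mylip encodes Idol, a ubiquitin ligase that limits the uptake of lipoprotein cholesterol (chr13:45389742-45412022, plus strand, ENSMUSG00000038175). Its levels of 133 and 144 CPM with DMSO and 151 and 138 CPM with GSI overlapped, and the interval of the fold difference was 0.941 to 1.16 (FDR = 0.509 by the same edgeR test). For both genes, a decrease of the size of Abcg1 was outside the interval.

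Compared per kilobase of annotated exons, the 10 transcripts spanned a wide range, as the plot of levels per length shows. With DMSO the order from high to low was Pltp (312 ± 29.0 CPM per kilobase, SD, n = 2), Apoe (192 ± 5.95), Mylip (42.8 ± 2.34), Nr1h2 (32.2 ± 2.39), Abcg1 (32.0 ± 0.154), Nr1h3 (12.3 ± 0.479), Lpcat3 (11.1 ± 0.0333), Abca1 (8.66 ± 0.457), Rxra (1.65 ± 0.00147) and Abca9 (0.397 ± 0.0226). The libraries of Nr1h2 and Abcg1 overlapped, and the other neighbours did not. With GSI the order was the same except that Nr1h3 (21.8 ± 0.206) moved above Abcg1 (20.6 ± 0.0466), and no neighbours overlapped. Abca1 stood at 1.78 ± 0.222 with GSI, still above Rxra at 1.22 ± 0.0157. With the length of the longest transcript in place of all exons, Nr1h2 and Mylip exchanged places in both groups.

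**Figure D3:**
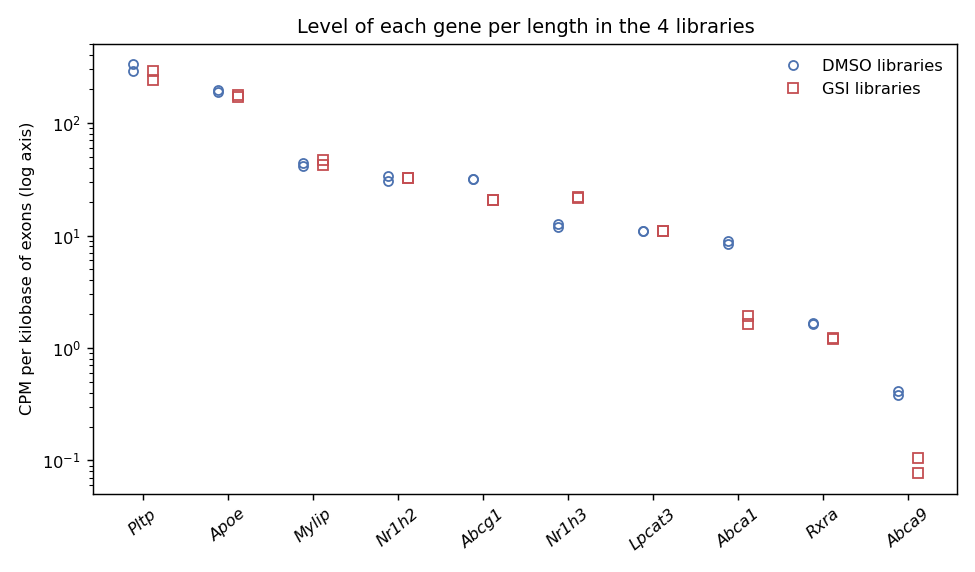
Level of each gene in CPM per kilobase of exons (vertical log axis) in the DMSO libraries (blue circles) and the GSI libraries (red squares), 1 symbol per library, ordered by the DMSO mean. Pltp and Apoe are highest, Abca9 is lowest, and the largest steps between the groups are those of Abca1, from 8.66 to 1.78, and Abca9, from 0.397 to 0.0914.

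The plot of fold change against level shows the 10 genes among all tested genes. Genes with a profile like that of Abca1 were also sought, so that their fold changes are near its own by choice. The 3 genes with at least 10 CPM whose profile over the 4 libraries was nearest to that of Abca1, by the Euclidean distance of centred log2 CPM among 7580 genes, were Thbs1 (distance 0.0567), Fosb (0.178) and Rnf150 (0.289). Thbs1, which encodes the matrix protein thrombospondin 1, had 123 and 114 CPM with DMSO and 22.7 and 27.8 CPM with GSI (log2 fold change -2.23). Fosb encodes a subunit of the AP-1 transcription factor, and had 134 and 145 CPM against 27.1 and 33.0 CPM (log2 fold change -2.21). Rnf150, the gene of a RING finger protein, had 19.7 and 17.2 CPM against 4.16 and 5.02 CPM. These profiles rest on 4 libraries.

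**Figure D4:**
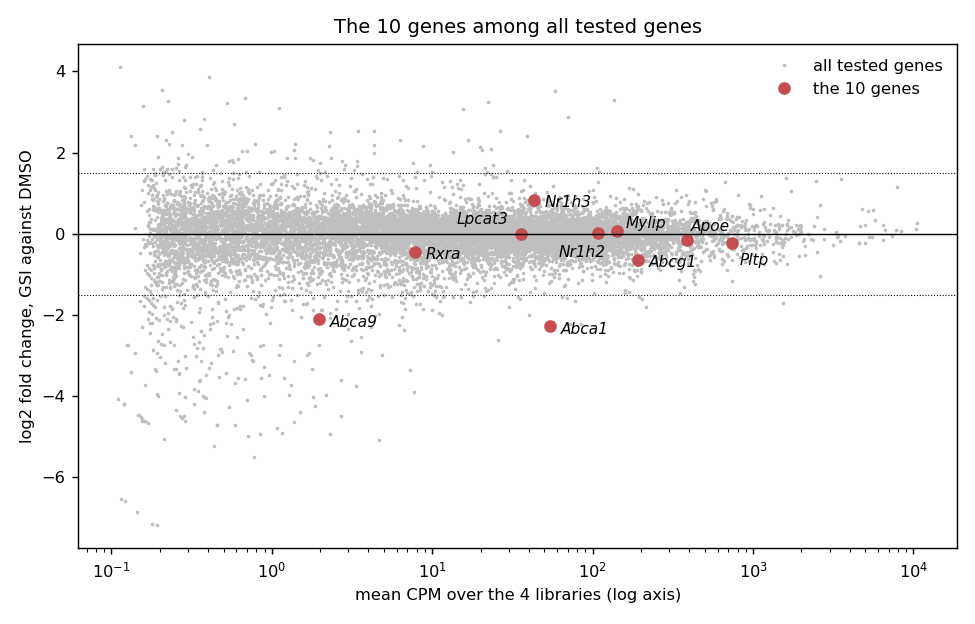
Log2 fold change, GSI against DMSO (vertical axis), against the mean CPM over the 4 libraries (horizontal log axis) for the 13211 tested genes (grey) and the 10 genes (red), with dotted lines at an absolute value of 1.5. Abca1 (-2.28) and Abca9 (-2.11) lie below the lower dotted line, and the other 8 genes lie within the dotted lines.

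Genes around the pathway were read in 6 lists holding 81 further genes, of which 61 were tested. Of these, 30 were lower and 8 higher with GSI, with a median log2 fold change of -0.12, beside 21.9% lower and 19.0% higher over all tested genes. The counts given below for each list are to be read beside the same shares. Other LXR targets were mixed. Of 14 genes, 10 were tested, 5 were lower, 1 was higher and 4 did not pass. The largest decreases were those of Scd2, a fatty acid desaturase, from 12.6 ± 0.0503 to 5.14 ± 0.0776 CPM (SD, n = 2), of Lpl, lipoprotein lipase, from 3532 ± 262 to 1713 ± 72.2 CPM (SD, n = 2), and of Arl4c, a small GTPase, from 175 ± 8.75 to 91.5 ± 6.13 CPM (SD, n = 2). The target that rose was Mertk, the receptor for engulfing dead cells, from 47.2 ± 2.52 to 73.4 ± 6.25 CPM (SD, n = 2, log2 fold change 0.64). Srebf1, which encodes the lipogenic regulator SREBP-1 and is often used as a readout of LXR, was at 45.9 ± 3.90 and 43.3 ± 4.14 CPM (SD, n = 2) and did not pass (FDR = 0.441 edgeR quasi-likelihood test, Benjamini-Hochberg adjusted).

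The partners and coregulators of the receptors were lower in 8 of the 14 genes tested and higher in 1, Tbl1xr1 (log2 fold change 0.22). Among those that fell were the coactivator genes Ncoa1, from 106 ± 4.53 to 69.6 ± 3.75 CPM (SD, n = 2, log2 fold change -0.61), and Ncoa2, from 57.3 ± 3.45 to 39.6 ± 2.60 CPM (SD, n = 2, log2 fold change -0.53). Nuclear receptors that act beside LXRs were lower in 5 of 8 tested genes and higher in 1. Nr1d1, the gene of the heme receptor REV-ERBα, went from 6.04 ± 0.0395 to 2.67 ± 0.0259 CPM (SD, n = 2), Rara, a retinoic acid receptor gene, had a log2 fold change of -0.81, and Ppargc1b, a coactivator gene, rose by 0.47 on the log2 scale.

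Of the enzymes that make or break down oxysterol and other sterol ligands, 7 of 9 were tested and 5 did not pass. Ch25h, the gene of cholesterol 25-hydroxylase, was among these 5 at 49.7 ± 3.27 and 54.4 ± 1.61 CPM (SD, n = 2). Cyp27a1, which encodes sterol 27-hydroxylase, fell by 0.42 on the log2 scale.

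Genes of cholesterol uptake, lysosomal exit and esterification split in direction, with 6 of 14 lower and 4 higher. The scavenger receptor gene Cd36 fell from 571 ± 16.2 to 303 ± 27.6 CPM (SD, n = 2) and Lrp1, the gene of a large endocytic receptor that also binds Apoe, fell from 532 ± 1.46 to 213 ± 12.3 CPM (SD, n = 2). Soat1, which encodes the enzyme that esterifies cholesterol for storage, was higher, from 212 ± 1.92 to 262 ± 2.44 CPM (SD, n = 2), and was named after its value was seen. Of the other ABCA and ABCG transporters, 8 of 17 were tested, 5 were lower and none was higher by edgeR's quasi-likelihood test. The largest decreases were those of Abcg3 (log2 fold change -0.92), Abca2 (-0.65) and Abcg2 (-0.56), so that no tested relative fell as far as Abca1 or Abca9.

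**Figure D5:**
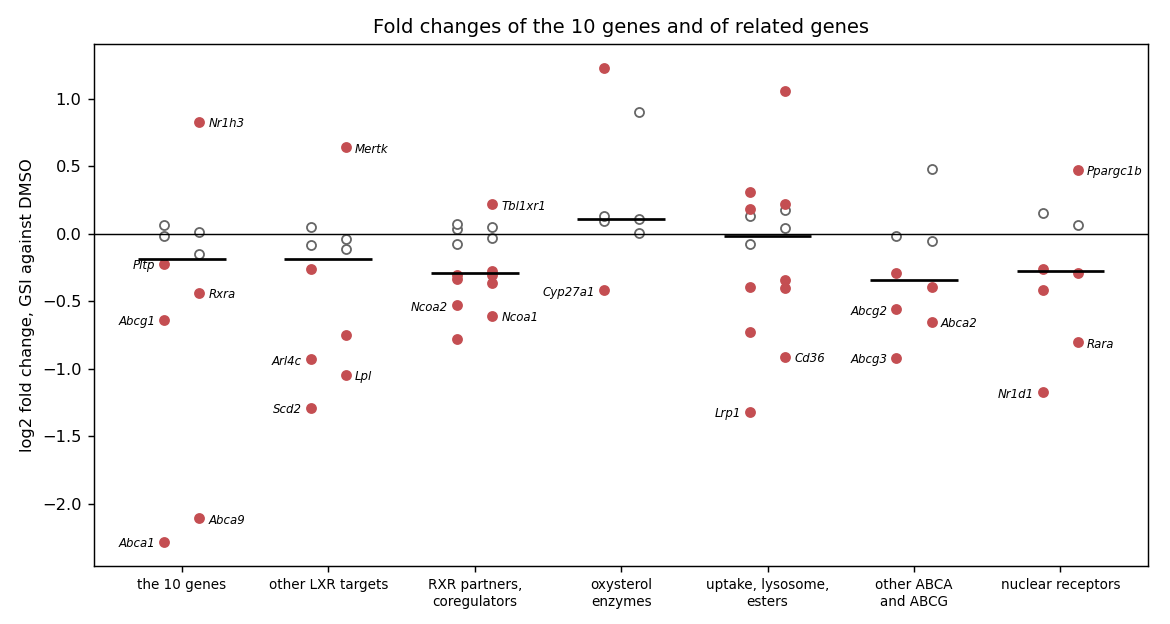
Log2 fold change, GSI against DMSO (vertical axis), of each tested gene among the 10 genes and in the 6 lists of related genes (horizontal axis), filled red where the FDR was under 0.05 and open otherwise, with each list's median as a black line. The medians run from -0.35 for the other ABCA and ABCG transporters to 0.11 for the oxysterol enzymes, and Abca1 and Abca9 lie below every gene of the related lists. The 10 genes and the lists were chosen with earlier results of these data known.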

How the data were processed

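BMMs activated with LPS/ICs in the presence of DMSO or GSI (DAPT) were profiled by RNA-seq, 2 replicates per group and 4 columns per replicate. Per the methods, the GSI was added overnight before activation, libraries were strand-specific (TruSeq, poly(A)) and sequenced on an Illumina NextSeq, and reads were trimmed with Trimmomatic, aligned with STAR (2.5.0a in the submitters' processing notes) to mm10 and counted with HTSeq. The notes also list mm9, and the HTSeq mode and strand setting are not given in the sources used here. The deposited values are raw counts per gene, made by the authors without normalization, on Ensembl IDs although the methods name Entrez Gene. Of these IDs, 98.8% (46488 of 47069) were found in GENCODE M21 (GRCm38), which gave positions and exon lengths. Promoters came from RefSeq (GRCm38.p6).

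All 16 columns were used and summed to 4 libraries. Between the columns of a replicate, chi-square per degree of freedom was 1.01 to 1.03, over genes with at least 40 counts, against 14.7 and 16.6 between replicates. Genes passing the default filterByExpr were tested with edgeR 4.0.16 (R 4.3.3), glmQLFit and glmQLFTest, 2-sided, with TMM factors and no covariate besides the group, and p-values were adjusted by Benjamini-Hochberg over 13211 genes (FDR). A gene was called at an FDR under 0.05, and a stricter rule added an absolute log2 fold change above 1.5. The standard error is the log2 fold change divided by the square root of F. Total counts of 42694655 to 56932059 per library set the precision, and Poisson intervals cover counting error only. The procedure was tested on simulated data.

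The 10 genes, the related lists, the markers and the motifs were chosen with earlier results of these data known. Genes named outside the 10 are the 3 largest changes per list among called genes with a mean of at least 1 CPM, genes sharing exons with a member, Notch targets, the 3 profiles nearest to Abca1 at 10 CPM or more, and, chosen after their values were seen, genes called alone in a direction, Soat1, Srebf1, Ch25h, Rxrb, Rxrg and the marker Csf1r. Some genes that the rule gives are not reported here. Alternatives were RLE factors or library totals alone, DESeq2 1.42.0, 2 other filters, the replicate number as a block, the 16 columns as separate samples, leaving out each library, the stricter rule, and the length of the longest transcript.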

Additional observations from a re-analysis of the deposited data

How the results depend on the processing

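The direction and the call of all 10 genes were the same with DESeq2, with RLE factors, without normalization factors, with either other filter on low counts and with the replicate block. The labels do not say whether same-numbered libraries of the 2 groups were paired. Their deviations correlated at 0.17 across 10957 genes. With the block 3314 genes were lower and 3130 higher, against 2888 and 2504 without it. With 2 libraries per group, these values do not settle whether the libraries were paired. Leaving out each library in turn left 4 to 5 of the 10 genes lower and 1 to 1 higher, with Pltp the gene lost, 2279 to 2694 of all genes lower and 1752 to 2288 higher, and 26 to 29 genes of the related lists lower and 5 to 7 higher, the value of 5 being that without DMSO replicate 2. In these fits a lone library of a group is assumed to vary like the others. Requiring an absolute log2 fold change above 1.5 as well left 2 of the 10 genes lower and 0 higher, 287 of all genes lower and 98 higher, and 0 genes of the related lists lower and 0 higher. With the 16 columns as separate samples, Apoe passed (FDR = 1.20e-06, edgeR quasi-likelihood test, Benjamini-Hochberg adjusted) and 3896 of all genes were higher, since that fit treats columns of 1 library as replicates. Levels per kilobase changed with the length used, and the order changed for Nr1h2 and Mylip.

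Each SD comes from 2 libraries. The counts could not show Notch targets or genes such as Scd1, with 5 to 7 counts, and Abca9 rested on 30 to 174 counts. The single time point, the absence of unstimulated cells and the use of 1 inhibitor limit the comparison to LPS/IC-activated cells with and without DAPT.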
